A study of Homo sapiens with 6 samples.

Results

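Heat shock proteins and their DNAJ co-chaperones were followed in MHCC97H cells, a human hepatocellular carcinoma line, after CRISPR/Cas9 targeting of the RNA helicase gene DDX17. The members were the genes whose symbol begins HSPA, HSPB, DNAJA, DNAJB or DNAJC followed by a number, together with HSP90AA1, HSP90AB1, HSP90B1, HSPD1, HSPE1, HSPH1 and the transcription factor gene HSF1. They made 73 of 58302 rows of the expression table, 55 of which averaged at least 0.5 FPKM, fragment counts scaled to transcript length and library size, over the 6 libraries and were tested. DDX17_KO cells (3 libraries) were set against cells carrying a non-target control (3 libraries), both grown in DMEM with fetal bovine serum. No label gives the number of clones or cultures behind the libraries, and the p-values rest on a spread between samples that may be technical. In such bulk samples, fewer cells expressing a gene and less of its RNA per cell cannot be told apart.

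Chaperones bind unfolded or partly folded proteins and pass them through cycles of ATP binding and hydrolysis. HSP70 proteins do so in the cytosol, the endoplasmic reticulum and the mitochondria, DNAJ proteins deliver clients to them and trigger ATP hydrolysis through the J domain, and HSP110 proteins exchange their nucleotide. HSP90 acts on near-native clients such as kinases and receptors, small heat shock proteins hold unfolded proteins without ATP, and HSF1 raises transcription of many of these genes when unfolded proteins accumulate in the cytosol. Chaperone levels are often high in tumour cells, liver cancer cells included.

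Depth estimated from the steps between low values was 10620000, 5350000 and 8200000 fragments in replicates 1, 2 and 3 of DDX17_KO, and from 12330000 to 14550000 in the controls. The targeted gene DDX17 had 22.4, 7.64 and 19.1 FPKM in DDX17_KO and 45.7, 41.4 and 43.9 FPKM in controls, with a two-sided exact permutation p of 0.1, the smallest that 3 against 3 libraries allow, and limma gave it an adjusted p of 0.282. The library numbered 2 in each group departed from the other 2 of its group, with relatively more of the GC-rich transcripts. Each of 10 hepatocyte markers, ALB, AFP and HNF4A among them, had a mean under 1 FPKM. Of 4 epithelial markers, the keratin gene KRT18 had 156 to 239 FPKM in DDX17_KO and 188 to 233 FPKM in controls. The keratin gene KRT8 had 94.0 to 170 FPKM in DDX17_KO and 94.7 to 110 FPKM in controls, whereas EPCAM and CDH1 had at most 0.128 FPKM in any library. The mesenchymal marker VIM had 73.6 to 110.5 FPKM in DDX17_KO and 81.8 to 108 FPKM in controls, and FN1 had at most 0.705 FPKM. The summed hepatocyte markers made 0.0126 to 0.0406 FPKM in DDX17_KO and 0.690 to 0.871 FPKM in controls, and 3 globin genes made 0 to 0.652 FPKM in DDX17_KO and 53.9 to 69.4 FPKM in controls. The part of this difference in the results below was not tested.

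Known control elements were looked for in the RefSeq promoter windows (GRCh38.p14) of 63 of the 73 members, each running from 250 bases before a transcription start to 50 after it. The first was a heat shock element, the binding sequence of HSF1, spelled GAA, TTC and GAA with 2 bases of any kind between neighbours and searched on both strands. It was present in 0.49% of 35116 windows of the genome. The 63 members had 82 windows, and 7 members (11.1%, a share of genes rather than of windows) had a match in at least 1. They were DNAJA1, DNAJB6, HSP90AA1, HSP90AB1, HSPA6, HSPA8 and HSPD1. Only this exact spelling was searched, so elements spelled otherwise were missed. The second was the element of the unfolded protein response of the endoplasmic reticulum, spelled CCAAT and CCACG with 9 bases of any kind between them and likewise searched on both strands. It was present in 0.0769% of windows and in 2 of the 63 members (3.17%, again a share of genes), HSPA5 and HSP90B1. No windows were used here for DNAJB3, DNAJC1, DNAJC22, DNAJC24, HSF1, HSPA12B, HSPA14, HSPA7, HSPB11 and HSPB2. Stretches of 100 bases follow for members whose levels are described below, 5′ to 3′ on the strand of the gene, with each match in capitals.
HSP90AA1: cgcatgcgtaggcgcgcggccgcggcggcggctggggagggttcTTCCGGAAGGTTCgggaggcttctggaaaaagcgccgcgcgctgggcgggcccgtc
HSP90AB1: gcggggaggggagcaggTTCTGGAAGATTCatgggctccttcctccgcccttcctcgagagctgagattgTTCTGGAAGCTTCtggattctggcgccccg
HSPD1: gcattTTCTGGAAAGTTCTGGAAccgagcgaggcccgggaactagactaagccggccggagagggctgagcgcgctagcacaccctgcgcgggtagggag
HSPA8: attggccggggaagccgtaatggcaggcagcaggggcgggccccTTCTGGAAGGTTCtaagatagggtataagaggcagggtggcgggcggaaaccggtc
HSPA6: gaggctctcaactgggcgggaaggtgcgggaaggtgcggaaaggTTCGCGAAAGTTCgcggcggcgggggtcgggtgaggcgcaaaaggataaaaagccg
DNAJA1: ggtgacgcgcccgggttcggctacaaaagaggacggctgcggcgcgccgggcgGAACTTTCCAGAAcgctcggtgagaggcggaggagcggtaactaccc
HSPA5: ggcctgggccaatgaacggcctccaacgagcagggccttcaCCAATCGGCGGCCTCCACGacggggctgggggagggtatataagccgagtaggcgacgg
HSP90B1: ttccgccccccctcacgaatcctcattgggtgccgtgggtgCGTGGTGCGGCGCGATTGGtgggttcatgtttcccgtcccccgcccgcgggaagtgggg

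The HSP90AA1 stretch lies at chr14:102087077-102087176 on the minus strand, that of HSP90AB1 at chr6:44247761-44247860 on the plus strand and that of HSPD1 at chr2:197499991-197500090 on the minus strand. HSPA8 is shown at chr11:123062136-123062235 on the minus strand, HSPA6 at chr1:161524422-161524521 on the plus strand and DNAJA1 at chr9:33025223-33025322 on the plus strand. HSPA5 is shown at chr9:125241351-125241450 on the minus strand and HSP90B1 at chr12:103930280-103930379 on the plus strand. HSP90AB1 had 2 matches in the stretch, HSPD1 had 2 that overlap each other, and HSPA8 and HSP90B1 each had 1 further match in the window outside the stretch. A match is a run of letters, and binding was not measured.

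With all 6 libraries, limma called 0 of the 55 tested members higher in DDX17_KO and 0 lower at an adjusted p of 0.05, against 0.0384% of all 15620 genes tested. At an unadjusted p of 0.05 there were 2 members, HSPB1 and HSPA12A, both lower, against 13.5% of all genes. Summed over all 73 members, the level was 2343, 2180 and 2464 FPKM in replicates 1, 2 and 3 of DDX17_KO, against 2145, 1796 and 2107 FPKM in replicates 1, 2 and 3 of the control. HSP90AB1 was the largest item of each sum, and every DDX17_KO sum lay above every control sum. As a share of all FPKM in a library the members made 0.887%, 0.590% and 0.938% in DDX17_KO and 0.758%, 0.564% and 0.687% in controls, and these shares overlapped through DDX17_KO replicate 2. The members' log2 fold changes had a median of 0.13, beside -0.03 over all genes, and 37 of 55 lay above 0, beside 47.5% of all genes. A log2 fold change here is DDX17_KO over control on the log2(FPKM + 1) scale, which understates the change of low genes. Without both libraries numbered 2, the same test called 7 members higher and 0 lower, against 5.51% of all genes higher and 3.3% lower. Those members were HSP90AA1, HSP90B1, HSPH1, HSPA4L, DNAJC3, DNAJC13 and DNAJC21, whose longest transcripts had from 38.1% to 45.2% GC, beside a median of 47.7% over all genes tested. Without DDX17_KO replicate 2 alone, it called HSP90B1 and DNAJC21 higher and 0 members lower, against 1.95% of all genes higher and 1.72% lower. In that setting, the trend of each library with transcript GC content and length was also removed by splines (the GC and length correction). Then 1 member was called higher, against 0.915% of all genes. With median-of-ratios scaling in place of that correction, 2 members were called higher, against 2.16% of all genes. DDX17 itself had a log2 fold change of -1.48 with all 6 libraries and of -1.04 without DDX17_KO replicate 2 (for the last, limma adjusted p = 0.0334; lowest 0.0207 and highest 0.790 among 20 other settings). DDX17_KO replicate 2 was the shallowest library and the one with the lowest DDX17.

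**Figure D1:**
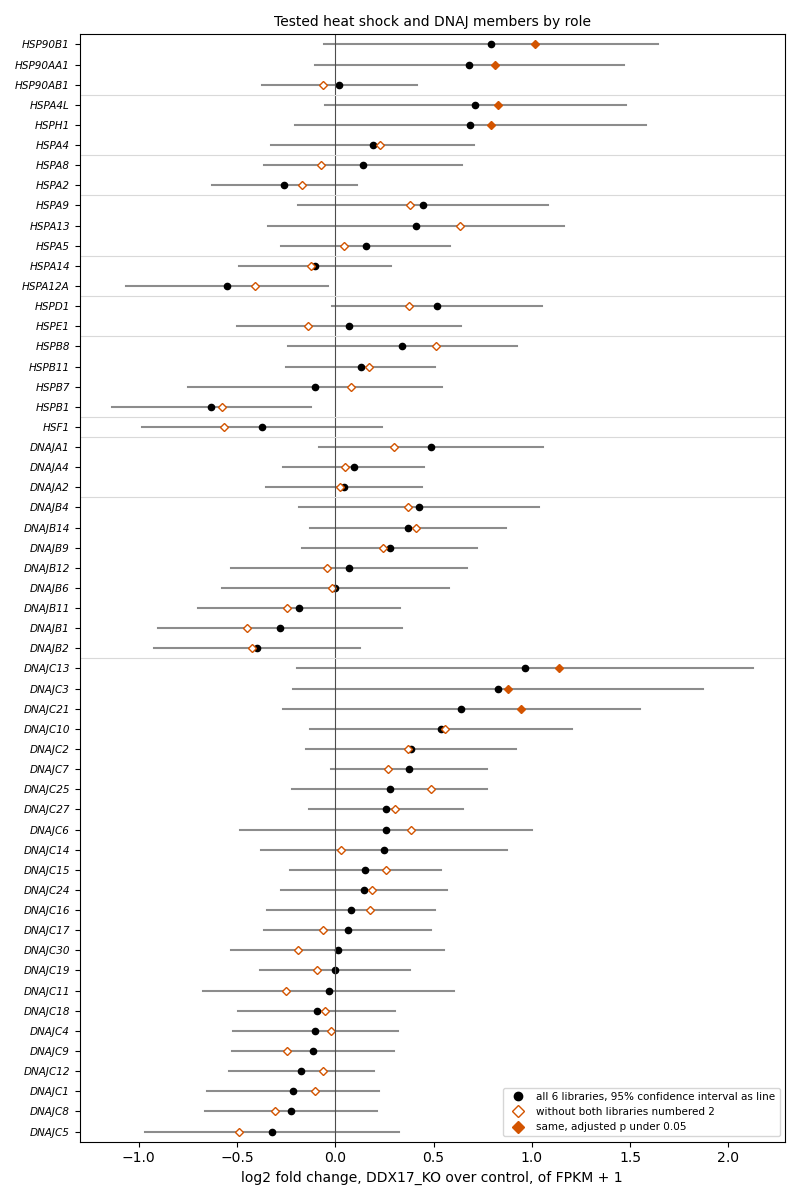
The plot gives the log2 fold change of FPKM + 1, DDX17_KO over control, for the 55 tested members by role, with black points for all 6 libraries and grey lines for 95% confidence intervals. Diamonds leave out both libraries numbered 2 and are filled for the 7 members that then passed an adjusted p of 0.05, all of them right of 0.

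The gene of HSF1, the factor that binds the heat shock element, averaged 4.75 FPKM over the 6 libraries. HSF1 (ENSG00000185122) had 3.69, 6.07 and 2.57 FPKM in replicates 1, 2 and 3 of DDX17_KO, against 4.84, 6.01 and 5.28 FPKM in replicates 1, 2 and 3 of the control. DDX17_KO replicates 1 and 3 lay below every control and DDX17_KO replicate 2 above every control, so the groups overlapped. The log2 fold change was -0.37 (95% confidence interval -0.99 to 0.24, limma adjusted p = 0.492). The HSF1 transcript had a GC content of 64.7%, the highest of the tested members, and after the GC and length correction its log2 fold change was -0.04. Its locus overlaps that of DGAT1 on the other strand. The related factor gene HSF2, taken from a list of 5 other heat shock factor genes of which 3 were tested, had 8.04, 3.53 and 8.40 FPKM in DDX17_KO and 5.15, 2.73 and 5.32 FPKM in controls. HSBP1 of the same list, whose protein binds HSF1, had 6.45, 7.9 and 6.18 FPKM in DDX17_KO and 7.55, 6.46 and 6.87 FPKM in controls. HSF2 had a log2 fold change of 0.47 (limma adjusted p = 0.501).

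The cytosolic HSP90 genes were the 2 most abundant members, and HSP90AA1 and HSP90B1 stood higher in the DDX17_KO libraries numbered 1 and 3 than in any control. HSP90AB1 (ENSG00000096384, chromosome 6, 44246166 to 44253888), the constitutive cytosolic form, had 824, 888 and 836 FPKM in replicates 1, 2 and 3 of DDX17_KO, against 859, 778 and 875 FPKM in replicates 1, 2 and 3 of the control. The libraries of both groups were interleaved, and the log2 fold change of HSP90AB1 was 0.02 (95% confidence interval -0.37 to 0.42). HSP90AA1 (ENSG00000080824, chromosome 14, 102080738 to 102139699), the stress-inducible cytosolic form, had 343, 186 and 414 FPKM in DDX17_KO, against 226, 138 and 203 FPKM in controls. DDX17_KO replicates 1 and 3 lay above every control, and DDX17_KO replicate 2 lay above only control replicate 2. The log2 fold change of HSP90AA1 was 0.68 (95% confidence interval -0.11 to 1.47, limma adjusted p = 0.391). Without both libraries numbered 2 it was 0.81 with an adjusted p of 0.0476, and over 20 other settings the limma adjusted p ran from 0.0476 to 0.814.

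The level of HSP90AA1 relative to HSP90AB1 was 0.416, 0.209 and 0.496 in replicates 1, 2 and 3 of DDX17_KO, against 0.263, 0.178 and 0.232 in replicates 1, 2 and 3 of the control. In each group the library numbered 2 had the lowest ratio, and the groups overlapped through DDX17_KO replicate 2. HSP90B1 (ENSG00000166598, chromosome 12, 103930107 to 103953645) encodes GRP94, the HSP90 of the endoplasmic reticulum. It had 107, 41.9 and 90.2 FPKM in DDX17_KO and 51.4, 33.0 and 45.0 FPKM in controls. As with HSP90AA1, DDX17_KO replicates 1 and 3 lay above every control and replicate 2 did not. Its log2 fold change was 0.79 (95% confidence interval -0.06 to 1.64, limma adjusted p = 0.373). HSP90B1 was the only member called higher both without DDX17_KO replicate 2, at 1.20 with an adjusted p of 0.0469, and in that setting after the GC and length correction, at 0.94 with an adjusted p of 0.0455. Over 20 other settings the limma adjusted p of HSP90B1 ran from 0.0378 to 0.808.

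The HSP110 genes encode nucleotide exchange factors for HSP70, and each of the 3 had a higher mean in DDX17_KO. HSPH1 (ENSG00000120694, chromosome 13, 31134974 to 31162388), which is itself heat-inducible, had 17.8, 7.67 and 19.1 FPKM in replicates 1, 2 and 3 of DDX17_KO, against 11.0, 5.25 and 9.47 FPKM in replicates 1, 2 and 3 of the control. HSPA4L (ENSG00000164070, chromosome 4, 127781821 to 127840733) had 14.8, 6.76 and 13.9 FPKM in DDX17_KO and 8.52, 4.56 and 6.87 FPKM in controls. In both genes DDX17_KO replicates 1 and 3 exceeded every control, and DDX17_KO replicate 2 exceeded only control replicate 2. The log2 fold changes were 0.69 for HSPH1 and 0.71 for HSPA4L, with limma adjusted p of 0.417 and 0.373. After the GC and length correction they were 0.45 for HSPH1 and 0.28 for HSPA4L. Leaving out both libraries numbered 2 gave 0.79 and 0.83 with adjusted p of 0.0396 and 0.0431, and over 20 other settings the limma adjusted p reached 0.837 for HSPH1 and 0.810 for HSPA4L. HSPA4, the most abundant of the group, had 45.9, 33.8 and 49.2 FPKM in DDX17_KO and 42.5, 31.0 and 38.6 FPKM in controls. HSPA4 had a log2 fold change of 0.19 (limma adjusted p = 0.661).

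**Figure D2:**
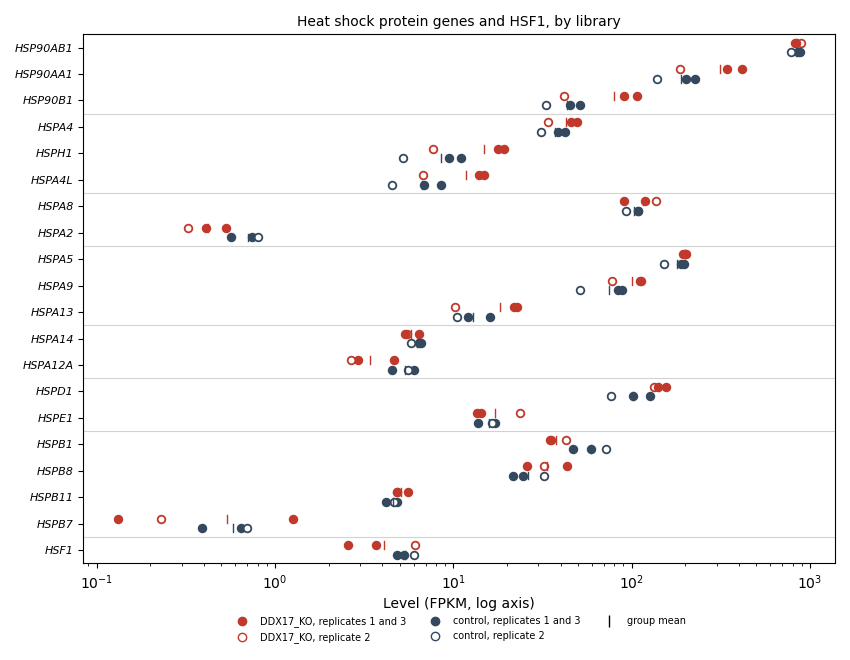
The plot gives the level in FPKM on a log axis of the tested heat shock protein genes and HSF1 in each library, with DDX17_KO in red above control in blue, open circles for replicate 2 and ticks for group means. For HSP90AA1, HSP90B1, HSPH1 and HSPA4L the filled red circles lie right of every control, while the open red circle lies among the controls.

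Among the cytosolic HSP70 genes, the constitutive form was abundant and the stress-induced forms were listed near 0 in both groups. HSPA8 (ENSG00000109971), the constitutive HSC70 gene, had 90.2, 138 and 118 FPKM in replicates 1, 2 and 3 of DDX17_KO, against 109, 92.5 and 108 FPKM in replicates 1, 2 and 3 of the control. The groups overlapped, with a log2 fold change of 0.14 (95% confidence interval -0.36 to 0.64). HSPA1A had 0.0643, 0.170 and 0.0832 FPKM in DDX17_KO and 0.111, 0.147 and 0.110 FPKM in controls. HSPA1B was listed at 0 in DDX17_KO replicate 1 and had 0.371 and 0.0483 FPKM in replicates 2 and 3, against 0.161, 0.114 and 0.136 FPKM in controls. These values of HSPA1B stand for 0, 5 and 1 fragments in DDX17_KO and 5, 4 and 5 fragments in controls. HSPA1A and HSPA1B are nearly identical in sequence. Whether fragments matching both were counted, and how they were divided between the pair, is uncertain. Their low values may therefore understate their expression. HSPA6, which is expressed almost only under stress, had 6, 6 and 4 fragments in DDX17_KO and 4, 10 and 11 fragments in controls. HSPA1A, HSPA1B and HSPA6 lay below the filter, and a difference between the groups was not detectable from so few fragments. HSPA1L was listed at 0 in all 6 libraries, as were DNAJB3 and DNAJB7. The 18 members below the filter had means over the 6 libraries of at most 0.474 FPKM. Among them, DNAJB3 and HSPA7 are annotated as pseudogenes. Testis-enriched HSPA2 had 0.535, 0.325 and 0.410 FPKM in DDX17_KO and 0.743, 0.800 and 0.566 FPKM in controls, without overlap, and a limma adjusted p of 0.442.

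The HSP70 genes of the organelles differed in their values. HSPA5 (ENSG00000044574, chromosome 9, 125234853 to 125241330), which encodes BiP of the endoplasmic reticulum, was nearly level, with 194, 199 and 202 FPKM in replicates 1, 2 and 3 of DDX17_KO, against 188, 152 and 196 FPKM in replicates 1, 2 and 3 of the control. The groups overlapped narrowly, DDX17_KO replicate 1 lying below control replicate 3. Its log2 fold change was 0.16 (95% confidence interval -0.27 to 0.58). HSPA9, the mitochondrial HSP70 gene, had 112, 77.7 and 113 FPKM in DDX17_KO and 88.4, 51.5 and 84.0 FPKM in controls, with DDX17_KO replicate 2 among the controls. Its log2 fold change was 0.45 (limma adjusted p = 0.441). HSPA13, a microsomal form, had 22.6, 10.2 and 21.8 FPKM in DDX17_KO and 16.0, 10.5 and 12.1 FPKM in controls, with a log2 fold change of 0.41 and an adjusted p of 0.524. DDX17_KO replicate 2 held the lowest HSPA13 value of the 6 libraries.

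The atypical HSP70 genes HSPA12A and HSPA14 had negative fold changes. HSPA12A (ENSG00000165868, chromosome 10, 116671192 to 116849741) had 2.92, 2.68 and 4.67 FPKM in replicates 1, 2 and 3 of DDX17_KO, against 6.05, 5.56 and 4.56 FPKM in replicates 1, 2 and 3 of the control. Here DDX17_KO replicates 1 and 2 lay below every control and replicate 3 lay just above control replicate 3. The log2 fold change was -0.55 (95% confidence interval -1.06 to -0.04, limma adjusted p = 0.369), and it was -0.56 after the GC and length correction. HSPA14, whose protein works with the ribosome, had 6.43, 5.51 and 5.37 FPKM in DDX17_KO and 6.56, 5.80 and 6.45 FPKM in controls, a log2 fold change of -0.10.

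The chaperonin of the mitochondrial matrix is built from HSP60, encoded by HSPD1, and its lid HSP10, encoded by HSPE1. Both genes start from one divergent promoter region on chromosome 2, where their RefSeq windows overlap by 204 bases. HSPD1 (ENSG00000144381, chromosome 2, 197486581 to 197516737) had 155, 133 and 140.3 FPKM in replicates 1, 2 and 3 of DDX17_KO, against 127, 76.1 and 101 FPKM in replicates 1, 2 and 3 of the control. Every DDX17_KO library lay above every control. For HSPD1 the log2 fold change was 0.52 (95% confidence interval -0.02 to 1.05, limma adjusted p = 0.371). HSPE1 had 14.3, 23.5 and 13.5 FPKM in DDX17_KO and 17.1, 16.5 and 13.8 FPKM in controls. DDX17_KO replicate 2 held the highest HSPE1 value and DDX17_KO replicate 3 the lowest, and the log2 fold change was 0.07 (95% confidence interval -0.50 to 0.64). The locus of HSPE1 overlaps those of HSPD1 and of the read-through gene HSPE1-MOB4, and the sharing of fragments among these genes is uncertain.

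Of the small heat shock proteins, HSPB1 and HSPB8 were the abundant members, and 4 of 8 were tested. HSPB1 (ENSG00000106211, chromosome 7, 76302544 to 76304295), the HSP27 gene, had 35.3, 42.8 and 34.7 FPKM in replicates 1, 2 and 3 of DDX17_KO, against 47.0, 72.1 and 59.0 FPKM in replicates 1, 2 and 3 of the control. Every DDX17_KO library lay below every control. For HSPB1 the log2 fold change was -0.63 (95% confidence interval -1.14 to -0.12, limma adjusted p = 0.357), the most negative of the tested members. After the GC and length correction it was -0.31. The longest HSPB1 transcript had 64.3% GC, and the part of GC content in this value was not tested. Over 20 other settings the limma adjusted p of HSPB1 ran from 0.0708 to 0.790. HSPB8, which works with the co-chaperone BAG3 in selective autophagy, had 25.8, 32.2 and 43.2 FPKM in DDX17_KO and 21.7, 32.1 and 24.7 FPKM in controls. Its log2 fold change was 0.34 (limma adjusted p = 0.504). HSPB11, also known as the intraflagellar transport gene IFT25, had 5.56, 4.85 and 4.86 FPKM in DDX17_KO and 4.81, 4.68 and 4.22 FPKM in controls, without overlap and with a log2 fold change of 0.13. HSPB7, best known from heart and muscle, had 1.26, 0.230 and 0.131 FPKM in DDX17_KO and 0.649, 0.698 and 0.391 FPKM in controls.

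The DNAJA proteins are the general J-domain partners of cytosolic and mitochondrial HSP70. DNAJA1 (ENSG00000086061, chromosome 9, 33025211 to 33039907) had 77.5, 73.8 and 87.9 FPKM in replicates 1, 2 and 3 of DDX17_KO, against 66.9, 40.2 and 67.0 FPKM in replicates 1, 2 and 3 of the control. Every DDX17_KO library exceeded every control, with a log2 fold change of 0.49 (95% confidence interval -0.08 to 1.06, limma adjusted p = 0.392). DNAJA2 had 17.2, 16.5 and 18.6 FPKM in DDX17_KO and 18.5, 15.6 and 16.7 FPKM in controls, with a log2 fold change of 0.04 (95% confidence interval -0.35 to 0.44). DNAJA4 had a mean of 2.58 ± 0.13 FPKM in DDX17_KO and 2.35 ± 0.18 FPKM in controls (SD, n = 3 each). DNAJA3, the mitochondrial member, had 0.226, 0.416 and 0.219 FPKM in DDX17_KO and 0.174, 0.172 and 0.147 FPKM in controls and lay below the filter.

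The DNAJB group lay close to all genes, with a median log2 fold change of 0.04 over 8 tested members of 13. DNAJB1 (ENSG00000132002), the heat-inducible HSP40 gene, had 19.0, 33.1 and 19.3 FPKM in replicates 1, 2 and 3 of DDX17_KO, against 22.7, 31.8 and 31.0 FPKM in replicates 1, 2 and 3 of the control. DDX17_KO replicates 1 and 3 lay below every control and replicate 2 above every control. The log2 fold change of DNAJB1 was -0.28 (limma adjusted p = 0.595). DNAJB11 and DNAJB9 encode partners of BiP in the endoplasmic reticulum. DNAJB11 had 16.0, 13.5 and 9.42 FPKM in DDX17_KO and 14.9, 14.1 and 14.8 FPKM in controls, while DNAJB9, a target of the unfolded protein response, had 3.10, 2.62 and 3.65 FPKM in DDX17_KO and 2.85, 1.86 and 2.53 FPKM in controls. Their log2 fold changes were -0.18 and 0.28, with limma adjusted p of 0.668 and 0.484. DNAJB4 had 6.94, 7.33 and 11.7 FPKM in DDX17_KO and 8.11, 4.73 and 5.62 FPKM in controls, a log2 fold change of 0.43. DNAJB2, whose protein binds ubiquitin chains, had 0.995, 1.71 and 0.798 FPKM in DDX17_KO and 1.40, 2.43 and 1.70 FPKM in controls, a log2 fold change of -0.40 (limma adjusted p = 0.422).

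**Figure D3:**
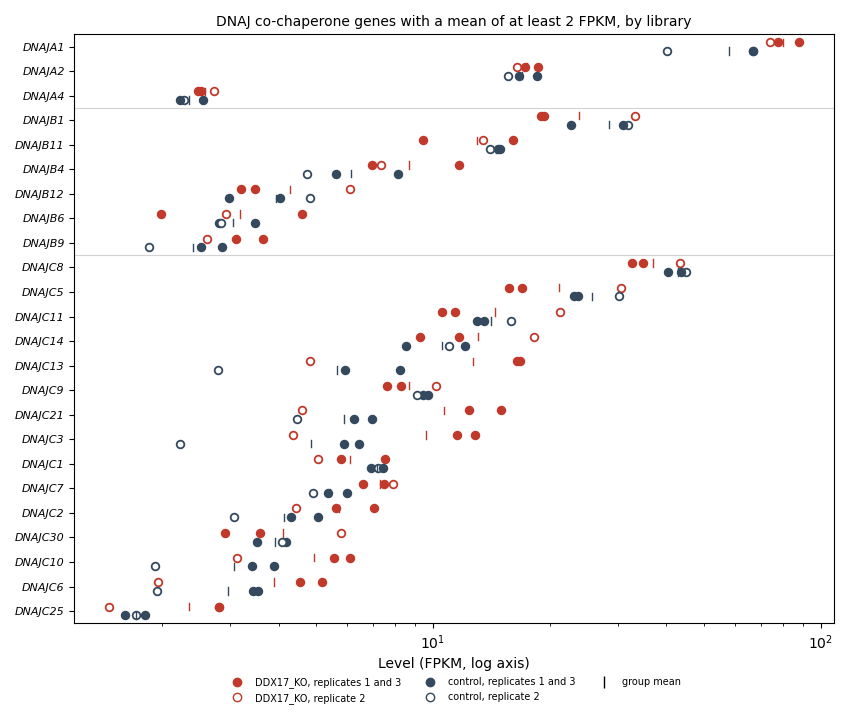
The plot gives the level in FPKM on a log axis of DNAJ genes averaging at least 2 FPKM over the 6 libraries, for each library, with DDX17_KO in red above control in blue, open circles for replicate 2 and ticks for group means. For DNAJC13, DNAJC21 and DNAJC3 the filled red circles lie right of every control, and for DNAJA1 and DNAJC7 all 3 red circles do.

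The DNAJC group is the most diverse, with J domains set in proteins of many tasks, and it held the 2 tested members with the largest log2 fold changes, DNAJC13 and DNAJC3. DNAJC13 (ENSG00000138246, chromosome 3, 132417526 to 132539032), which encodes the endosomal protein RME-8, had 16.8, 4.82 and 16.4 FPKM in replicates 1, 2 and 3 of DDX17_KO, against 8.24, 2.79 and 5.92 FPKM in replicates 1, 2 and 3 of the control. DNAJC3 (ENSG00000102580, chromosome 13, 95677139 to 95794989), the gene of the co-chaperone P58IPK in the endoplasmic reticulum, had 11.5, 4.35 and 12.9 FPKM in DDX17_KO and 5.88, 2.23 and 6.45 FPKM in controls. DNAJC21 (ENSG00000168724, chromosome 5, 34929593 to 34958964), whose protein acts in ribosome maturation, had 15.0, 4.59 and 12.4 FPKM in DDX17_KO and 6.95, 4.47 and 6.24 FPKM in controls. All 3 genes had DDX17_KO replicates 1 and 3 above every control and DDX17_KO replicate 2 between control values. The log2 fold changes were 0.97 for DNAJC13, 0.83 for DNAJC3 and 0.64 for DNAJC21, with limma adjusted p of 0.397, 0.408 and 0.440. Without both libraries numbered 2 they were 1.14, 0.88 and 0.95 with adjusted p of 0.0398, 0.0369 and 0.0391. Over 20 other settings the limma adjusted p reached 0.820 for DNAJC13, 0.835 for DNAJC3 and 0.833 for DNAJC21. Without DDX17_KO replicate 2 alone DNAJC21 had 1.10 with an adjusted p of 0.0478, which became 0.61 with an adjusted p of 0.0592 when the GC and length correction was added. In that setting without the correction DNAJC13 had 1.499 and DNAJC3 1.26, and neither was called. With all 6 libraries the correction gave 0.36 for DNAJC21, 0.68 for DNAJC13 and 0.58 for DNAJC3.

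DNAJC10, which encodes the disulfide reductase ERdj5, had 6.11, 3.12 and 5.56 FPKM in replicates 1, 2 and 3 of DDX17_KO, against 3.90, 1.92 and 3.41 FPKM in replicates 1, 2 and 3 of the control. Its log2 fold change was 0.54, and it turned to -0.10 after the GC and length correction. That correction used the longest of 11 annotated DNAJC10 transcripts, with 20129 bases and 37.4% GC, the longest among the tested members. Which of these transcripts the cells expressed, and the part of length and GC content in the turn, was not tested. DNAJC7, which binds both HSP70 and HSP90, had 6.58, 7.88 and 7.49 FPKM in DDX17_KO and 6.01, 4.89 and 5.35 FPKM in controls. No DDX17_KO library overlapped a control, and the log2 fold change of DNAJC7 was 0.37 (95% confidence interval -0.02 to 0.77, limma adjusted p = 0.372). DNAJC8, a splicing-associated protein gene and the most abundant of the group, had 34.7, 43.2 and 32.6 FPKM in DDX17_KO and 40.3, 44.9 and 43.5 FPKM in controls, a log2 fold change of -0.22. DNAJC5, the gene of cysteine string protein, had 15.7, 30.6 and 17.0 FPKM in DDX17_KO and 23.1, 30.2 and 23.6 FPKM in controls, a log2 fold change of -0.32. DNAJC11, a gene of mitochondrial cristae organisation, had 10.6, 21.2 and 11.4 FPKM in DDX17_KO and 13.0, 15.9 and 13.5 FPKM in controls. In DNAJC5 and DNAJC11, DDX17_KO replicates 1 and 3 lay below every control and replicate 2 above every control. DNAJC1, which encodes a membrane protein of the endoplasmic reticulum, had a log2 fold change of -0.21, and DNAJC12, whose protein binds aromatic amino acid hydroxylases, of -0.17. Tested DNAJB and DNAJC members that are not described one by one had log2 fold changes from -0.11 for DNAJC9 to 0.39 for DNAJC2. DNAJC22, below the filter, had 0.378, 0.289 and 0.358 FPKM in DDX17_KO and 0.564, 0.600 and 0.658 FPKM in controls, without overlap.

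DDX17_KO and control values were fully separated in 8 of the 55 tested members, against 20.7% of all genes tested. DNAJA1, DNAJC7, DNAJC27, HSPD1 and HSPB11 had all DDX17_KO libraries above all controls, 5 members against 8.09% of all genes. HSPB1, HSPA2 and DNAJC12 had all DDX17_KO libraries below all controls, 3 members against 12.6% of all genes.

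The replicate numbers offered a comparison within pairs, though the labels number the libraries without pairing them. Deviations from the group means correlated at 0.3, 0.546 and 0.214 in same-numbered libraries 1, 2 and 3. After the GC and length correction these correlations were lower, at 0.155, 0.347 and 0.115. Before that correction, DDX17_KO replicate 3 correlated more with control replicate 1, at 0.329, than with control replicate 3. The pairing was thus taken from these same data and was clearest for the libraries numbered 2. DDX17_KO exceeded control in 3 of 3 same-numbered pairs in 22 of the 55 tested members, against 26.2% of all genes, and lay below it in 3 of 3 in 8 members, against 27.5% of all genes. The median over the members of the difference in log2(FPKM + 1) was 0.08, 0.15 and 0.15 in pairs 1, 2 and 3, beside -0.03, 0.02 and -0.03 over all genes. HSP90AA1 differed by 0.60, 0.42 and 1.03 in pairs 1, 2 and 3 and HSPH1 by 0.64, 0.47 and 0.94. DNAJC13 differed by 0.95, 0.62 and 1.33, whereas DNAJC21 differed by 1.01, 0.03 and 0.89. HSPD1 and DNAJA1 had their largest difference in pair 2, at 0.80 and 0.86, and HSPB1 differed by -0.40, -0.74 and -0.75. When the replicate number entered limma as a block, it called 0 of the 55 members at an adjusted p of 0.05, against 0.0256% of all genes, and 17 at an unadjusted p of 0.05, against 28.6% of all genes.

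**Figure D4:**
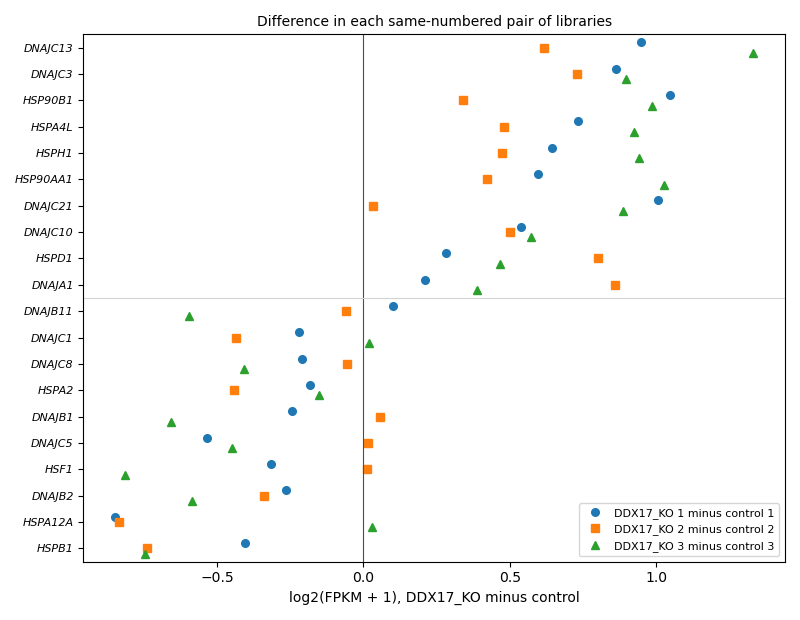
The plot gives the difference in log2(FPKM + 1), DDX17_KO minus control, in each same-numbered pair of libraries for the 10 tested members with the largest and the 10 with the smallest log2 fold change. All points of the upper 10 lie right of 0, with DNAJC21 at 0.03 in pair 2, while several of the lower 10 lie on both sides.

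GC content moved with these values. Across the 55 tested members, which share their libraries, Spearman's rho between the log2 fold change and the GC content of the longest transcript was -0.57, beside -0.51 across 15564 tested genes with a known GC content. The members had a median GC content of 44.2%, beside 47.7% for all genes tested. Within the groups, rho between GC content and a library's deviation from its group mean was 0.67 in DDX17_KO replicate 2 and 0.71 in control replicate 2 over the members, and from -0.61 to -0.43 in the other 4 libraries. After the GC and length correction with all 6 libraries, the median log2 fold change of the members was 0.15, beside 0.00 over all genes, and 0 members were called. The log2 fold change of HSP90AA1 was then 0.66 and that of HSP90B1 0.65. The part of GC content in the remaining differences was not tested.

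**Figure D5:**
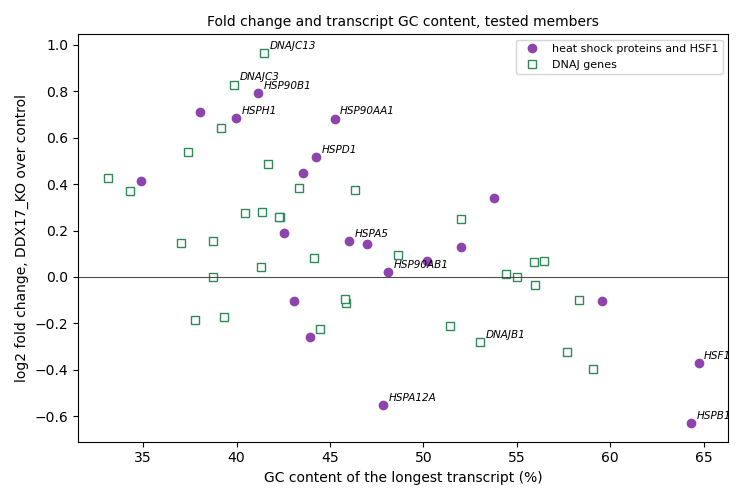
The plot sets the log2 fold change, DDX17_KO over control, of the 55 tested members against the GC content in percent of the longest annotated transcript, with filled circles for heat shock proteins and HSF1 and open squares for DNAJ genes. HSPB1 and HSF1, at 64.3% and 64.7% GC, lie below 0, and HSP90B1 and DNAJC13, near 41% GC, lie at 0.79 and 0.97.

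Other genes of protein folding were read from 5 lists of 84 genes, all of which had a row in the table. None of the 78 tested genes in them passed the adjusted threshold in limma with all 6 libraries, against 0.0384% of all genes, and 3 had an unadjusted p under 0.05, against 13.5% of all genes. Over all 15620 genes tested, 8197 lay below 0 and the median was -0.03. Co-chaperones of HSP70 and HSP90 lay below 0 in 19 of 24 tested genes, with a median log2 fold change of -0.14 and of -0.10 after the GC and length correction. FKBP4, an HSP90-binding immunophilin gene, had 93.1, 124 and 70.0 FPKM in replicates 1, 2 and 3 of DDX17_KO, against 107, 137 and 110.0 FPKM in replicates 1, 2 and 3 of the control. STIP1, the gene of HOP, which links HSP70 to HSP90, had 44.8, 67.5 and 47.5 FPKM in DDX17_KO and 54.7, 64.6 and 54.3 FPKM in controls. HSPBP1, a nucleotide exchange factor gene chosen after its values were seen, had 3.75, 4.41 and 3.54 FPKM in DDX17_KO and 5.10, 7.96 and 6.34 FPKM in controls (limma adjusted p = 0.354).

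Subunits of the cytosolic chaperonin TRiC and of prefoldin lay on both sides of 0, with 7 above and 6 below among 13 tested and a median of 0.06 on the log2 fold change scale. That median turned to -0.19 without DDX17_KO replicate 2 and to -0.10 without both libraries numbered 2. The TRiC subunit gene CCT5 had 129, 79.6 and 115 FPKM in DDX17_KO and 96.8, 91.4 and 91.5 FPKM in controls, and the subunit gene CCT3 had 61.8, 109 and 82.5 FPKM in DDX17_KO and 90.3, 114 and 90.7 FPKM in controls. In the list of endoplasmic reticulum folding and the unfolded protein response, 18 of 25 tested genes lay below 0, with a median of -0.06, which was -0.01 after the GC and length correction and -0.16 without DDX17_KO replicate 2. CALR, the calreticulin gene, had 270, 357 and 277 FPKM in DDX17_KO and 287, 371 and 267 FPKM in controls, and the stress factor gene ATF4 had 72.8, 122 and 74.6 FPKM in DDX17_KO and 99.8, 127 and 106 FPKM in controls. Neither passed. XBP1, a factor of the unfolded protein response named here because of its values, had from 8.56 to 9.81 FPKM in DDX17_KO and at least 11.3 FPKM in each control, with a log2 fold change of -0.64 (95% confidence interval -1.18 to -0.10, limma adjusted p = 0.366). Mitochondrial import and folding genes lay below 0 in 11 of 13 tested, with a median of -0.16, which was -0.10 after the GC and length correction and -0.36 without DDX17_KO replicate 2. TOMM20, the gene of an import receptor of the outer membrane, had 102, 70.8 and 113 FPKM in DDX17_KO and 100.2, 56.5 and 92.6 FPKM in controls, and TIMM23, the gene of the inner membrane channel, had 66.5, 102 and 69.5 FPKM in DDX17_KO and 76.8, 92.2 and 80.4 FPKM in controls. Without both libraries numbered 2, the test called SEL1L, EIF2AK3 and HSF2 higher and PPP1R15A and TRAP1 lower in these lists, against 8.81% of all genes in either direction.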

How the data were processed

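RNA libraries of DDX17_KO (3) and control (3) MHCC97H cells were grouped by title. Gene levels came as 1 deposited table in FPKM, a unit read from its values. StringTie, HISAT2, edgeR, CASAVA 1.8 and hg38 are listed, with no role, in the submitters' processing notes; the strand setting is not given in any source used here. Loci are those of the deposited table; GENCODE 29 supplied transcript length and GC content for 99.64% of tested genes. For genes with 1 transcript, FPKM times length fell on whole multiples of a step per library, within 0.05 up to 20 fragments, which gave the depth.

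The test was limma 3.58.1 (R 4.3.3, Python 3.11.15) on log2(FPKM + 1) with an intensity trend, over 15620 genes averaging at least 0.5 FPKM, two-sided, with Benjamini-Hochberg adjustment and a threshold of 0.05. It was checked on simulated data with independent noise for each gene and library. Deviations shared by many genes of a library, such as those with GC content, were not simulated. DDX17 was also compared by an exact permutation test over 20 arrangements. Deviations of same-numbered libraries from their group means correlated at 0.3, 0.546 and 0.214 for replicates 1, 2 and 3, which is where the pairing comes from. DDX17_KO replicate 3 also correlated with control replicate 1, at 0.329. After the GC and length correction the same-numbered correlations were 0.155, 0.347 and 0.115. The members, roles and lists were chosen with earlier results of these data known. Members named were HSF1, the 3 most abundant per role, the 10 with the largest fold change in each direction, stress-induced members, and the 2 most abundant genes of each list. Further members, DNAJA3, DNAJC7, DNAJC12, DNAJC22 and HSPB7 among them, were described outside this rule with their values known. The same holds for the list genes HSPBP1, XBP1 and PPP1R15A. Alternatives were other pseudocounts, filters, scalings and moderations, a replicate block, a spline correction for GC content and length, and libraries left out. Of the tested members, 28 overlap another tested gene, and fragments of such pairs cannot be separated with certainty.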

Additional observations from a re-analysis of the deposited data

How the results depend on the processing

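Depth limits members below the filter. With all 6 libraries 6 genes were called, 0 of them members. The count over all genes was 3 without a filter, 11 after the GC and length correction, 4 with the replicate block and 1376 without both libraries numbered 2. Leaving out single libraries gave from 3 to 572: 3 for each control and for DDX17_KO replicate 3, 9 for DDX17_KO replicate 1 and 572 for DDX17_KO replicate 2. Members called ranged from 0 to 2 with single libraries left out, the 2 being without DDX17_KO replicate 2, and were 7 without both libraries numbered 2 and 0 with the replicate block. The replicate block changed no member's call. Chosen after seeing the data were 2 settings without DDX17_KO replicate 2: the GC and length correction gave 290 genes and 1 member, and median-of-ratios scaling 546 genes and 2 members.

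The members' median log2 fold change of 0.13 was 0.0602 without a filter, 0.19 with median-of-ratios scaling and 0.0496 without both libraries numbered 2, beside 0.0121, 0.0266 and -0.0369 over all genes. It ran from 0.0683 to 0.15 with single libraries left out, at 0.0683 without control replicate 2 and 0.0806 without DDX17_KO replicate 2. That of DDX17 ran from -1.76 to -1.04 with single libraries left out and was -1.08 without both libraries numbered 2; without DDX17_KO replicate 2 it was -1.34 with the GC and length correction and -0.94 with median-of-ratios scaling.

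Some log2 fold changes of members not called turned sign, that of DNAJC10 from 0.54 and the others from values nearer 0. The cause was not tested. With the GC and length correction, with or without the replicate block, DNAJA2 was at -0.10, DNAJC10 at -0.10 and DNAJC11 at 0.23. With that correction and without DDX17_KO replicate 2, DNAJA2 was at -0.17, DNAJC10 at -0.22, DNAJC1 at 0.19 and DNAJC11 at 0.0382. Median-of-ratios scaling put DNAJC11 at 0.0363 and the median of all genes at 0.0266 instead of -0.03. Without DDX17_KO replicate 2 that scaling put HSPA14 at 0.0072 and HSPE1 at -0.0782. HSPE1 lay below 0 there with and without the scaling. Without both libraries numbered 2, HSP90AB1 was at -0.0636, HSPA8 at -0.0708 and HSPE1 at -0.14. With single libraries left out, DNAJA2 ran from -0.0119 to 0.11, DNAJB11 ran from -0.34 to 0.0128, DNAJC11 ran from -0.33 to 0.14, HSP90AB1 ran from -0.0309 to 0.0532 and HSPE1 ran from -0.17 to 0.21.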
